A study of Drosophila melanogaster with 27 samples.

Results

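TDP-43 is an RNA-binding protein that shuttles between nucleus and cytoplasm and takes part in the splicing, transport, stability and translation of many mRNAs. It forms cytoplasmic inclusions in amyotrophic lateral sclerosis and in frontotemporal dementia, and G298S is a disease-linked substitution in its C-terminal low-complexity domain. Here the question was which RNAs came down with YFP-tagged TDP-43 G298S beyond those that came down with YFP alone. The quantity described is the log2 enrichment of the immunoprecipitate (IP) over the input with TDP-43 G298S minus the same enrichment with YFP. It rests on 12 of the 27 libraries of the series, namely the IP and the input of 3 head lysates per genotype. A TDP-43 WT group with the same fractions entered the gene filter, the scaling and the estimate of the spread. Its enrichment was also set beside that of G298S and tested against it. The unbound fraction left after the IP served as another reference.

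The G298S flies carried UAS TDP43G298S-YFP together with UAS mCD8-RFP on the second chromosome (line TDP-94, w background). The YFP flies carried the UAS-2XEYFP insertion AH3 in a yw background (line GRYFP-5) and had no mCD8-RFP, so the groups also differed in that transgene and in background. The TDP-43 WT flies carried UAS TDP43WT-YFP with the same mCD8-RFP reporter (line TDP-92). In all groups the split-GAL4 driver SS01276 switched the transgenes on in a subset of mushroom body neurons (MBNs), adults were 1 to 3 days old, and males and females were pooled. Each lysate came from whole heads of many pooled flies, so the input held RNA from all head cells while the bait was expressed where the driver was active. According to the methods, YFP alone was expressed at higher levels than cytoplasmic TDP-43 YFP. The lysates are named by their label numbers, as G298S-203, G298S-503, G298S-506, YFP-201, YFP-901 and YFP-902, and the values of a genotype's 3 lysates keep that order.

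MBNs, the Kenyon cells, are the intrinsic neurons of the mushroom body, the fly centre for olfactory learning. They receive odour input at their dendrites and dopaminergic input along their axons, and dopamine receptors of the D1 type on these axons are required for memory formation and forgetting. In an RNA immunoprecipitation, a transcript bound to the bait becomes more abundant in the IP than in the input. A transcript that sticks to the beads, to the antibody or to the YFP tag also does so, which is what the YFP flies control for. In such bulk samples, fewer cells of a type and less RNA per cell cannot be told apart.

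Total counts ran between 1848426 (G298S-503) and 16763149 in the G298S IPs and between 8500688 and 15027004 in the YFP IPs. Inputs held 36171288 to 157035496 counts in G298S and 16845284 to 24557729 in YFP. All 13 Kenyon cell markers were detected in every library, as were the markers of photoreceptors, glia and muscle. Of the counts in G298S inputs, 43.4 to 45.1% were mt:lrRNA, the large ribosomal RNA of mitochondria, against 24.5 to 26.9% in YFP inputs. Levels below are CPM, that is counts scaled to the same library total, on TMM-scaled library sizes, which compare a gene between libraries but not genes with each other.

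More enriched with G298S than with YFP were mRNAs of the dopamine receptors Dop1R1, Dop1R2 and Dop2R, the glypican dlp and the GTPase Rac2. So were ey and prt, although 9 of the 13 Kenyon cell markers lay below the median of all genes. Less enriched were mitochondrial RNAs and mRNAs such as pAbp, eff, Vha26, Rac1 and Eaat1, most of them with a higher input level in G298S. Of 12921 genes tested, 45 were more enriched with G298S than with YFP (0.348%) and 48 were less enriched (0.371%), with a log2 difference beyond 1 and an adjusted p below 0.05 in edgeR's quasi-likelihood test. In all 93 the 3 G298S lysates lay on one side of the 3 YFP lysates. The calls used these same lysates, so this was close to fixed in advance. Among all genes tested, 8.96% had every G298S lysate above every YFP lysate and 14.7% had every one below. Unadjusted p was below 0.05 for 584 genes with a higher value in G298S (4.52%) and for 1145 with a lower one (8.86%). The median difference over all genes was -0.02. The split of the calls depended on the scaling, since 48.4% of them were in the more-enriched direction with TMM, 77.9% after mitochondrially encoded and ribosomal RNA genes were taken out and 99.4% with library sizes alone. Library sizes alone also moved the median of all genes to 0.66.

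The 45 more-enriched RNAs were 36 mRNAs, 8 noncoding RNAs and 1 gene without a symbol, and differences among them ran between 1.02 and 6.17. Most were enriched in the G298S IP itself, 36 of 45 by more than 1 on the log2 scale, against 7.39% of all genes. Their median IP over input was 1.92 with G298S and -0.10 with YFP. The calls were made from these same values, so both contrasts were in part fixed in advance.

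**Figure D1:**
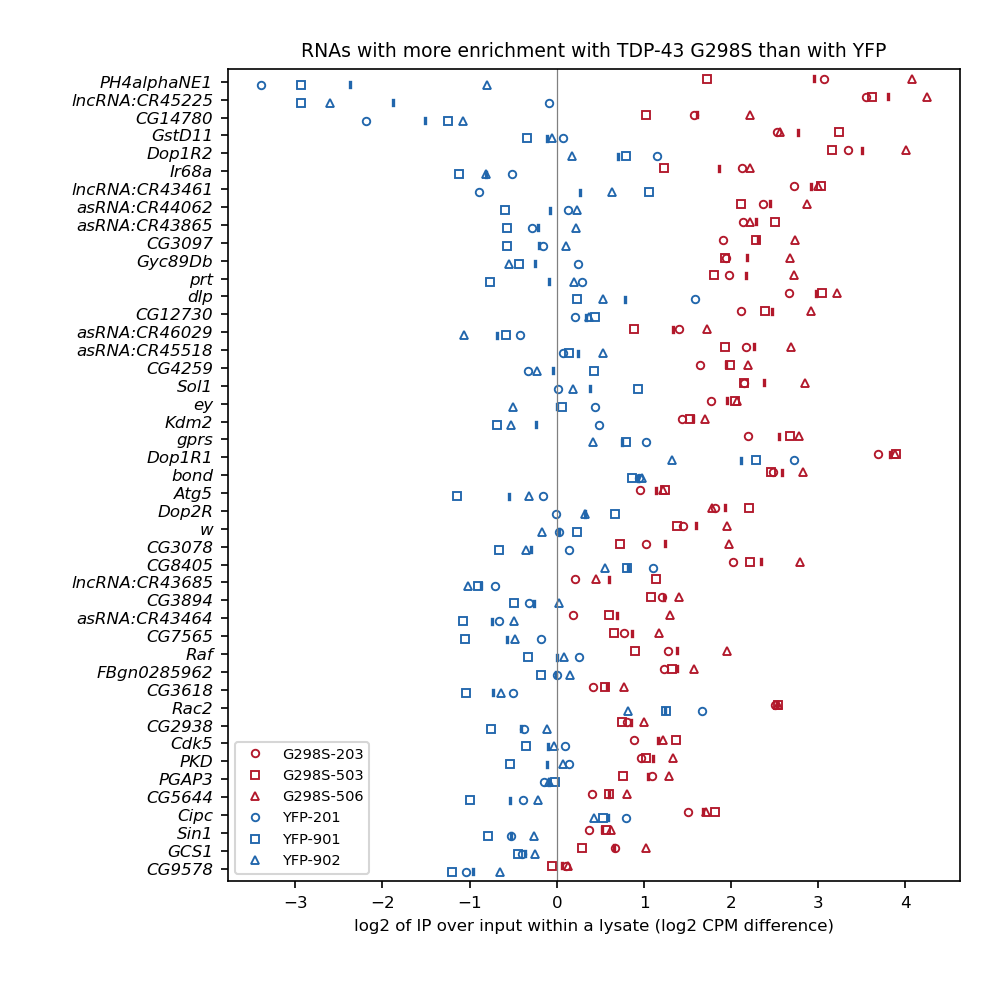
Log2 of IP over input (x axis, log2 CPM difference within a lysate) for the 45 RNAs more enriched with TDP-43 G298S (red) than with YFP (blue), with circles for G298S-203 and YFP-201, squares for G298S-503 and YFP-901, triangles for G298S-506 and YFP-902, and a bar at each group's mean. In every one of the 45 rows, called from these same lysates, the 3 G298S lysates lie to the right of the 3 YFP lysates.

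Dopamine receptors were among the more-enriched mRNAs. Of 17 receptors for dopamine, octopamine, tyramine and serotonin, 3 were more enriched with G298S, all of them dopamine receptors, and none was less enriched in edgeR's test or in DESeq2, with 5 lower at an unadjusted p below 0.05. Dop1R2, the D1-like receptor that acts in forgetting, had 83.3, 70.9 and 105 CPM in the G298S IPs, against 8.18, 8.61 and 6.68 CPM in the YFP IPs. Its inputs had 8.18, 7.85 and 6.51 CPM in G298S, against 3.65, 4.93 and 5.91 CPM in YFP. Groups overlapped in neither fraction, but the inputs differed by 0.64 and the IPs by 3.47 on the log2 scale. The difference for Dop1R2 was 2.83 (SE 0.34, adjusted p = 0.00199).

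Dop1R1, the D1-like receptor required in MBNs for olfactory learning, had 330, 396 and 446 CPM in the G298S IPs, against 38.0, 51.8 and 30.1 CPM in the YFP IPs. Its inputs held 25.5, 26.6 and 30.3 CPM in G298S, against 5.71, 10.6 and 11.99 CPM in YFP. Groups overlapped in neither fraction, and Dop1R1 was itself enriched in the YFP IP, by 2.09 on the log2 scale. Enrichment with G298S exceeded that by 1.74 (SE 0.36, adjusted p = 0.0386), a call lost when only the 12 G298S and YFP libraries were fitted (adjusted p = 0.0539) or all 27 (adjusted p = 0.106). Dop2R, the D2-like receptor, had 74.1, 74.0 and 76.2 CPM in the G298S IPs, against 45.4, 45.1 and 44.1 CPM in the YFP IPs. In the inputs the order turned round, with 21.0, 16.0 and 22.2 CPM in G298S and 45.5, 28.5 and 35.3 CPM in YFP. Both fractions thus added to the Dop2R difference of 1.62 (SE 0.25, adjusted p = 0.0132).

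The other receptors of this list did not pass. The dopamine and ecdysteroid receptor DopEcR had a difference of -0.95 (SE 0.40, adjusted p = 0.306), the octopamine receptor Oamb had 0.62 (SE 0.36, adjusted p = 0.511) and the serotonin receptor 5-HT7 had -1.50 (SE 0.59, adjusted p = 0.256). Over all 17 receptors the median was -0.10, close to the -0.02 of all genes. With the unbound fraction in place of the input, the list median relative to all genes was 1.05, against -0.076 with the input, and Oamb passed (1.53, SE 0.33, adjusted p = 0.0492). GABA-B-R2, a metabotropic GABA receptor subunit, had a difference of 1.29 (adjusted p = 0.0526 in edgeR's test) that passed with the lysate number as a block (adjusted p = 0.0466) and in DESeq2 (adjusted p = 0.00165), among other fits.

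Among the 13 Kenyon cell markers, prt and ey were more enriched with G298S and none was less enriched in edgeR's test or in DESeq2, with 2 lower at an unadjusted p below 0.05. The gene ey, or eyeless, encodes a Pax6 transcription factor expressed in Kenyon cells. It had 66.3, 63.4 and 65.7 CPM in the G298S IPs, against 16.7, 17.4 and 11.6 CPM in the YFP IPs. Its inputs were similar, at 19.4, 15.4 and 15.7 CPM in G298S and 12.3, 16.7 and 16.6 CPM in YFP. The ey difference was 1.94 (SE 0.31, adjusted p = 0.0159), and YFP alone showed no enrichment of ey (0.01).

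The gene prt, or portabella, encodes a vesicular transporter of mushroom body neurons. Its IP levels were 20.4, 16.3 and 31.2 CPM in G298S, against 5.49, 2.69 and 5.06 CPM in YFP, while all 6 inputs lay between 4.41 and 5.14 CPM. For prt too the IPs did not overlap, and the difference was 2.27 (SE 0.44, adjusted p = 0.0276). The other Kenyon cell markers did not pass, and most of them lay below the median of all genes. The phosphodiesterase gene dnc, a classical learning gene, had a difference of -1.63 (SE 0.70, adjusted p = 0.306) and the transcription factor gene mamo had -1.41 (SE 0.59, adjusted p = 0.300). The median of the 13 markers was -0.34, and 9 of the 13 lay below the median of all genes.

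dlp encodes a glypican, a heparan sulfate proteoglycan that binds Wnt and other ligands at the cell surface. It had 121, 148 and 212 CPM in the G298S IPs, against 34.7, 23.3 and 30.1 CPM in the YFP IPs. Inputs overlapped, with 19.0, 17.9 and 22.7 CPM in G298S and 11.6, 19.8 and 20.8 CPM in YFP. The dlp difference was 2.25 (SE 0.37, adjusted p = 0.0163). Of 15 heparan sulfate proteoglycan and enzyme genes it alone was called in edgeR's test, while DESeq2 called 1 more and 2 less enriched. The other glypican gene, dally, had a difference of -0.98 (SE 0.37, adjusted p = 0.238), and the syndecan gene Sdc had -1.63 (SE 0.56, adjusted p = 0.188, and 0.0337 in DESeq2).

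None of 17 Wnt ligand and receptor genes passed in edgeR's test or in DESeq2, and unadjusted p was below 0.05 for 1 of them, Wnt4, at -2.09 (SE 0.84). The Wnt receptor genes fz and fz2 had differences of 0.03 (SE 0.40, adjusted p = 0.995) and -0.85 (SE 0.40, adjusted p = 0.381). For fz, the mRNA was enriched over input about equally in both IPs, by 1.86 with G298S and 1.82 with YFP. The same held for futsch, a microtubule-associated protein, with 1.53 with G298S and 1.58 with YFP, and for Dscam2, an adhesion molecule, with 0.69 with G298S and 0.79 with YFP. Both are among the mRNAs that the study follows up, and neither passed (adjusted p = 0.989 and 0.960).

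Rac2 and Rac1 encode GTPases that act on the actin cytoskeleton, and their mRNAs passed in opposite directions. Rac2 had 399, 416 and 484 CPM in the G298S IPs, against 85.3, 88.9 and 67.0 CPM in the YFP IPs. Its inputs were also higher, with 70.1, 71.8 and 83.1 CPM in G298S and 26.9, 37.4 and 37.8 CPM in YFP. The Rac2 difference was 1.29 (SE 0.25, adjusted p = 0.0277), on top of an enrichment of 1.24 with YFP alone. Rac1, its close paralog, had 107, 94.3 and 86.0 CPM in the G298S IPs and 106, 99.4 and 94.96 CPM in the YFP IPs, which overlapped. The Rac1 inputs did not, at 173, 168 and 172 CPM in G298S against 66.5, 90.0 and 79.2 CPM in YFP. Hence the Rac1 difference of -1.18 (SE 0.20, adjusted p = 0.0180) came from the inputs. Similar coding sequences could let reads of Rac1 and Rac2 be split between them, which was not tested.

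Further mRNAs of defined function were more enriched. GstD11, a member of the glutathione S-transferase family, had 16.6, 20.3 and 18.6 CPM in the G298S IPs, against 4.94, 3.98 and 3.88 CPM in the YFP IPs. Its input was lower in G298S, at 2.84, 2.09 and 3.09 CPM against 4.70, 5.05 and 4.03 CPM in YFP, and its adjusted p was the smallest of all genes. The GstD11 difference was 2.88 (SE 0.31, adjusted p = 0.000995), and it alone was called of 32 genes in its family in edgeR's test. Ir68a, an ionotropic receptor of moisture-sensing neurons, had a difference of 2.81 (SE 0.38, adjusted p = 0.00588). Gyc89Db, an atypical soluble guanylyl cyclase that senses oxygen, had 19.6, 16.3 and 22.3 CPM in the G298S IPs, against 4.64, 2.80 and 2.58 CPM in the YFP IPs. The Gyc89Db difference was 2.39 (SE 0.42, adjusted p = 0.0194), and that of the histone demethylase gene Kdm2 was 1.84 (SE 0.31, adjusted p = 0.0180).

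Some called genes were named after their values were seen, because their products are well known. Among them, bond, a fatty acid elongase, had 413, 387 and 596 CPM in the G298S IPs, against 141, 172 and 167 CPM in the YFP IPs, with overlapping inputs. Its difference of 1.69 (SE 0.30, adjusted p = 0.0201) added to an enrichment of 0.93 with YFP alone. The autophagy gene Atg5 had 1.63, the MAP kinase pathway gene Raf 1.42, the neuronal kinase gene Cdk5 1.25 and the protein kinase D gene PKD 1.22, all with IPs that did not overlap. With the lysate number as a block Cdk5 lost its call (adjusted p = 0.0504). Cipc, whose mammalian namesake inhibits the circadian factor CLOCK, had 1.11 (SE 0.24, adjusted p = 0.0432).

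The largest fitted differences rested on few reads. PH4alphaNE1, a prolyl 4-hydroxylase subunit, had 4.72, 2.20 and 4.59 CPM in the G298S IPs, the second from 5 counts, against 0, 0 and 2 counts in the YFP IPs. The long noncoding RNA lncRNA:CR45225 had 118, 7 and 91 counts in the G298S IPs, against 6, 0 and 0 counts in the YFP IPs, and CG14780 had 34, 3 and 33 counts in the G298S IPs, against 3, 2 and 2 counts in the YFP IPs. All 3 were called, but the size of such a difference depends on the prior count, and CG14780 did not pass with the lysate number as a block (adjusted p = 0.0819). The antisense RNAs among the calls may share reads with their partner genes, since no strand setting is given in the sources used here.

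The called gene w, white, encodes the eye pigment transporter and is also carried in part on many fly transgenes. It had 49.1, 44.9 and 67.9 CPM in the G298S IPs and 42.3, 60.3 and 44.4 CPM in the YFP IPs, which overlapped. Inputs were 17.98, 17.2 and 17.5 CPM in G298S and 41.5, 51.2 and 50.0 CPM in YFP. The w difference of 1.59 (SE 0.31, adjusted p = 0.0277) therefore lay in the inputs, and reads from transgene copies of w could not be told apart from the endogenous gene. Hsp70Bb, a heat-inducible chaperone gene, had 36.4, 23.8 and 29.5 CPM in the G298S IPs, against 7.57, 6.46 and 2.69 CPM in the YFP IPs. Its inputs were 6.21, 4.23 and 3.95 CPM in G298S, against 10.2, 5.48 and 5.43 CPM in YFP. Although the IPs did not overlap, the Hsp70Bb difference of 2.97 (SE 0.82) had an adjusted p of 0.103. With the lysate number as a block it passed (adjusted p = 0.00301). Near-identical Hsp70 copies may split their reads, and none of the 14 inducible heat shock genes passed without the block in edgeR's test, with 1 higher at an unadjusted p below 0.05 and 1 called in DESeq2. TBPH, the fly TDP-43 ortholog, had a difference of 0.40 (SE 0.21, adjusted p = 0.452).

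A difference of differences can come from the IPs or from the inputs, so both parts were set side by side. Among the 45 more-enriched RNAs the IP part was the larger one in 38, and the IP level itself differed between G298S and YFP in 40, always higher in G298S. Across all 12921 genes the IP part was the larger one in 5624, and 14.5% differed between the IPs. The median of the IP part was 1.74 and that of the input part -0.30. Besides w, the input part was the larger one for Dop2R, PGAP3, CG5644, CG3618, CG9578 and the gene without a symbol. With the lysate number as a block PGAP3 (adjusted p = 0.0597), CG5644 (adjusted p = 0.0514) and CG9578 (adjusted p = 0.0887) lost their calls.

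Among the 48 less-enriched RNAs the order was the reverse. The input part was the larger one in 42, with a median of 0.97, while the median of the IP part was -0.33. Inputs differed in 45 of the 48, higher in G298S in 44, and IPs differed in 9, all lower in G298S. Across all 12921 genes the input part was the larger one in 7297, and inputs differed for 27.4%. The less-enriched RNAs were thus mostly RNAs that were more abundant in G298S head input with a similar level in both IPs. Enrichment with YFP alone passed for 3 of the 48, against 1329 of all 12921 genes. The median IP over input of the 48 was -0.95 with G298S and 0.36 with YFP, a contrast in part fixed by the calls.

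**Figure D2:**
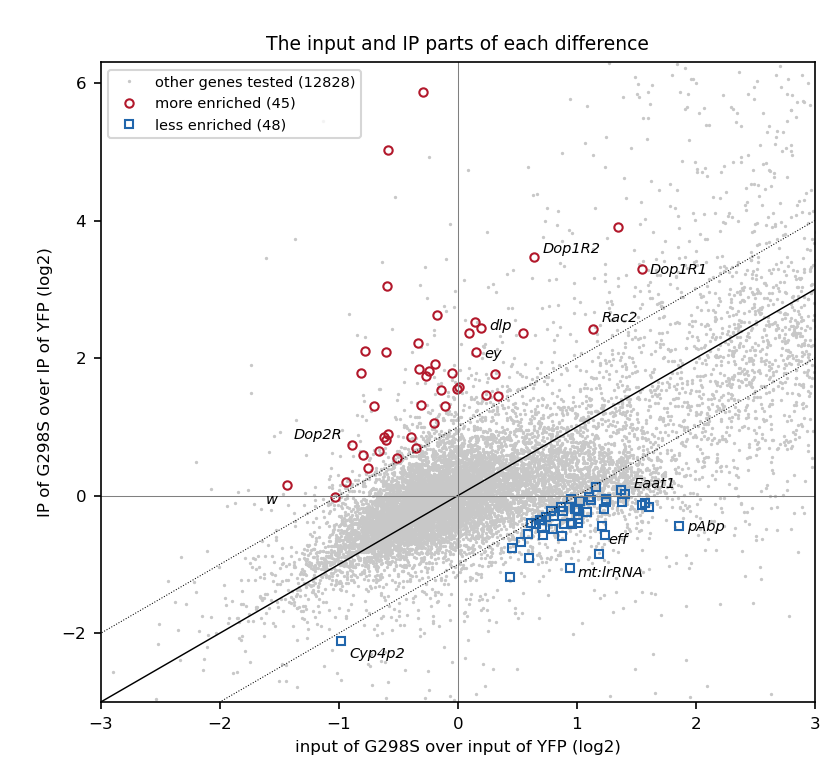
Log2 of G298S over YFP in the IPs (y axis) against the same in the inputs (x axis), per gene, with the 45 more-enriched RNAs as red circles, the 48 less-enriched as blue squares and other tested genes as grey points. The solid line marks no difference in enrichment and the dotted lines a log2 difference of 1 and -1. The IP part is the larger one for 38 of the 45 red circles, the blue squares other than Cyp4p2 have a positive input part, and 982 of 12921 genes, none of them called, fall outside the axes.

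Mitochondrial RNAs stood among the less enriched. mt:lrRNA had 57270, 73820 and 60880 CPM in the G298S IPs, against 116000, 104700 and 125500 CPM in the YFP IPs. The inputs went the opposite way, with 628900, 609000 and 637800 CPM in G298S and 274700, 254100 and 296300 CPM in YFP. No lysate overlapped in either fraction, and the mt:lrRNA difference was -2.04 (SE 0.30, adjusted p = 0.0112). Of 26 mitochondrially encoded genes tested, 3 were less enriched and none was more enriched, the others being the cytochrome oxidase subunits mt:CoIII at -1.63 (SE 0.30, adjusted p = 0.0219) and mt:CoII at -1.51 (SE 0.32, adjusted p = 0.0402). A further subunit, mt:CoI, at -1.10 (adjusted p = 0.121 in edgeR's test), passed with the lysate number as a block (adjusted p = 0.0448) and in DESeq2 (adjusted p = 0.0120), which called 6 of the 26 less enriched. The list median was -0.91, and 11 of the 26 had a lower value at an unadjusted p below 0.05, against 8.86% of all genes. Nuclear genes of oxidative phosphorylation, by contrast, had a median of 0.12 over 85 genes and no call in edgeR's test or in DESeq2, with no unadjusted p below 0.05.

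Among the other less-enriched mRNAs was eff. This E2 ubiquitin-conjugating enzyme gene had 410, 413 and 322 CPM in the G298S IPs, against 519, 595 and 432 CPM in the YFP IPs. Its inputs had 1219, 1116 and 1251 CPM in G298S, against 438, 588 and 525 CPM in YFP. Inputs differed more than IPs, and the eff difference was -1.64 (SE 0.25, adjusted p = 0.0132). The E2 genes Ubc2 and Ubc6 had -1.29 (SE 0.22, adjusted p = 0.0180) and -1.07 (SE 0.22, adjusted p = 0.0346), and Oda, the ornithine decarboxylase antizyme, had -1.15 (SE 0.19, adjusted p = 0.0163). No list of ubiquitin enzymes was tested, and Ubc6 was named after its value was seen. Of 46 proteasome subunits none passed in edgeR's test or in DESeq2, with a median of 0.02 and no unadjusted p below 0.05.

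The V-ATPase acidifies endosomes and synaptic vesicles. Of 29 subunit genes 2 were less enriched, Vha26 at -1.11 (SE 0.19, adjusted p = 0.0180) and VhaAC45 at -1.01 (SE 0.20, adjusted p = 0.0283), and none was more enriched. VhaAC45 lost its call with the lysate number as a block (adjusted p = 0.0504). The list median was -0.24, and 3 of the 29 were lower at an unadjusted p below 0.05 (10.3%), near the 8.86% of all genes. Vha26 had 362, 346 and 358 CPM in the G298S IPs and 442, 450 and 357 CPM in the YFP IPs, so that the groups overlapped. Its inputs had 939, 726 and 869 CPM in G298S, against 402, 504.8 and 467 CPM in YFP. The early endosome GTPase gene Rab5 had -1.10 (adjusted p = 0.0400, and 0.0637 with the block), and the mitochondrial import pore gene Tom40 had -1.19 (SE 0.22, adjusted p = 0.0218). The transcription factor gene Xrp1, at -1.10, likewise lost its call with the block (adjusted p = 0.0574, against 0.0390).

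The mRNAs of some RNA-binding proteins and of 1 initiation factor were less enriched. pAbp, the poly(A)-binding protein, had 460, 338 and 293 CPM in the G298S IPs and 471, 809 and 207 CPM in the YFP IPs, with wide overlap. Its inputs were 2853, 3276 and 3027 CPM in G298S, against 664, 936 and 923 CPM in YFP. The largest negative difference of the 48 was that of pAbp, -2.31 (SE 0.49, adjusted p = 0.0419), which did not pass without the mitochondrially encoded genes (adjusted p = 0.0559) or in the fit of the 12 libraries (adjusted p = 0.0699). The splicing and translation regulator gene bru1 had -1.29 (SE 0.25, adjusted p = 0.0264), the Y-box protein gene yps had -1.28 (SE 0.23, adjusted p = 0.0216) and the initiation factor gene eIF1A had -1.06 (SE 0.18, adjusted p = 0.0185).

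Of 30 genes for RNA granule and RNA-binding proteins, 2 were less enriched (pAbp and bru1) and none was more enriched. Lower values at an unadjusted p below 0.05 were found for 17 of the 30, against 8.86% of all genes, and the list median was -1.02. DESeq2 called 12 of the 30 less enriched and none more enriched. The CPEB gene orb2 had -1.85 (SE 0.54, adjusted p = 0.119), the hnRNP gene Hrb27C had -1.64 (SE 0.63, adjusted p = 0.249), and Syp had -1.72 (adjusted p = 0.0755). Syp passed with the block (adjusted p = 0.0466) and, among other fits, in DESeq2, where orb2 also passed (adjusted p = 0.0120). Relative to all genes of a lysate, the median IP over input of this list was 0.56, 0.82 and 0.10 in the G298S lysates, against 1.69, 1.76 and 0.45 in the YFP lysates. Lysate YFP-902 lay within the G298S range, so the groups overlapped.

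Among the remaining less-enriched RNAs were a few with known roles in the head. The glial glutamate transporter gene Eaat1 had 408, 463 and 365 CPM in the G298S IPs and 387, 503.3 and 322 CPM in the YFP IPs. Its inputs had 721, 651 and 691 CPM in G298S, against 214, 290 and 275 CPM in YFP. Only the inputs separated the genotypes, and the Eaat1 difference was -1.38 (SE 0.28, adjusted p = 0.0350). With nrv2, a sodium pump subunit gene, at -1.22 (SE 0.27, adjusted p = 0.0454), 2 of 8 glia markers were less enriched, against 0.371% of all genes. The astrocyte gene alrm had 0.58 (SE 0.21, adjusted p = 0.209). The 8 glia markers had a median of -0.01, near the -0.02 of all genes, with 4 above and 4 below the latter.

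The clock transcription factor gene Clk had -1.68 (SE 0.36, adjusted p = 0.0432), the neuropeptide receptor gene CNMaR had -1.996 (SE 0.39, adjusted p = 0.0278), the nucleotide synthesis gene Prps had -1.80 (SE 0.33, adjusted p = 0.0218) and the G protein subunit gene Ggamma1 had -1.01 (SE 0.19, adjusted p = 0.0226). The dosage compensation RNA lncRNA:roX1, which is made in males, had -1.21 (SE 0.26, adjusted p = 0.0429). Its inputs had 619, 522 and 532 CPM in G298S, against 301, 450 and 405 CPM in YFP. Its IPs had 339.5, 320 and 355 CPM in G298S, against 570, 605 and 448 CPM in YFP. According to the methods, males and females were pooled in equal numbers in every genotype. The share of male RNA per lysate was not tested. Cyp4p2, a cytochrome P450, was the exception among the 48 in that both fractions were lower in G298S. It had 12.5, 15.4 and 13.8 CPM in the G298S IPs, against 62.0, 59.5 and 56.6 CPM in the YFP IPs, and 27.2, 28.1 and 28.8 CPM in the G298S inputs, against 46.9, 61.0 and 58.0 CPM in the YFP inputs. The Cyp4p2 difference was -1.13 (SE 0.18, adjusted p = 0.0133).

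**Figure D3:**
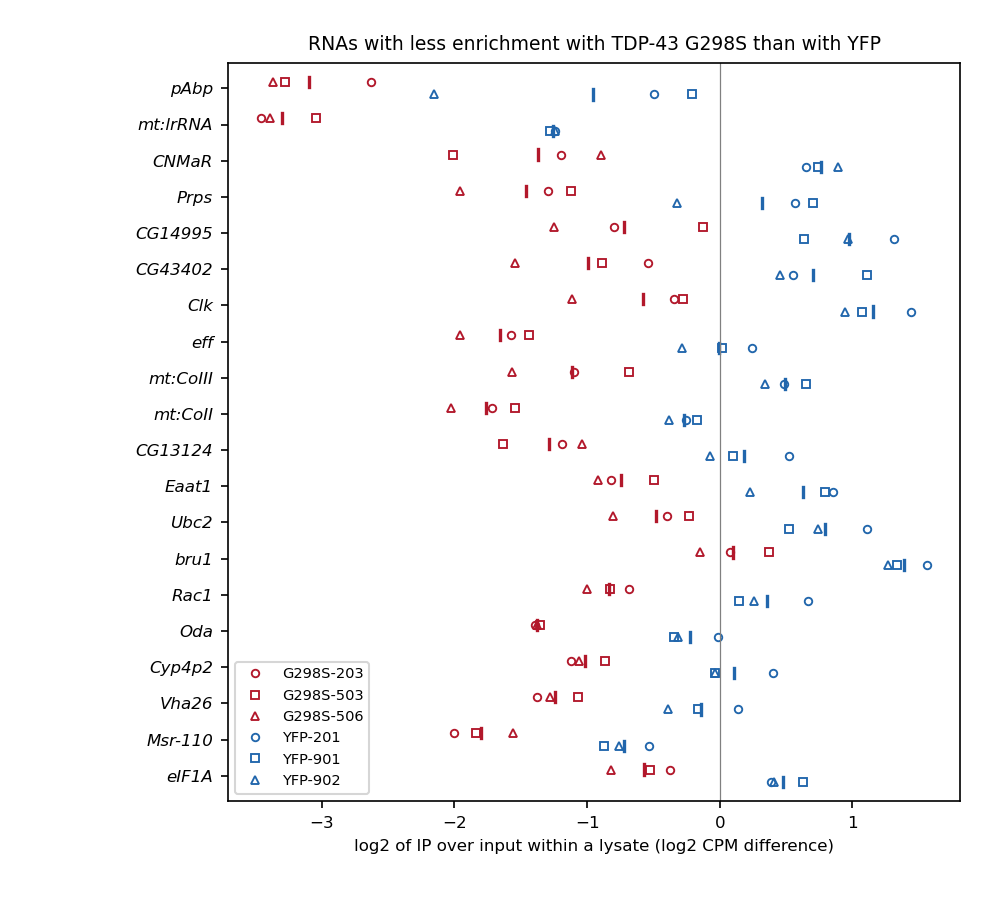
Log2 of IP over input (x axis, log2 CPM difference within a lysate) for 20 of the 48 RNAs less enriched with TDP-43 G298S (red) than with YFP (blue), the 10 largest without overlap and the 10 of smallest adjusted p with bru1 and Eaat1 added, with the same symbols per lysate and a bar at each group's mean. In each row, called from these same lysates, the 3 red points lie to the left of the 3 blue ones. For pAbp lysate YFP-902 comes nearest to the G298S lysates.

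Lists of synaptic, axon guidance, cell adhesion and learning genes had medians below that of all genes and no call in edgeR's test. The median was -0.87 for 27 synaptic vesicle and active zone genes, with no gene called in edgeR's test, 2 called lower in DESeq2 and 13 lower at an unadjusted p below 0.05. In that list the acetylcholine transporter gene VAChT had -1.49 (SE 0.68, adjusted p = 0.354) and the calcium sensor gene Syt1 had -1.35 (SE 0.55, adjusted p = 0.271). It was -0.71 for 37 axon guidance genes, with 14 lower at an unadjusted p below 0.05. The beat and side adhesion families had -0.77 over 21 genes, the DIP and dpr families -0.60 over 32 and the learning and cAMP pathway -0.64 over 15, with 11, 11 and 6 such genes. None of these 4 lists held a called gene in edgeR's test, while DESeq2 called 5, 2, 5 and 2 genes lower and 1 of the DIP and dpr genes higher. For comparison, 8.86% of all genes were lower at that p, and the median of all genes was -0.02.

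As in the called set, the inputs carried these shifts. The median input part was 1.09 for the synaptic list and 1.23 for the RNA-binding list, while the median IP part was 0.14 and 0.17. Between the YFP lysates the synaptic list varied more than between the G298S lysates, with a median IP over input relative to all genes of 0.26, 0.55 and 0.21 in the G298S lysates, against 1.53, 1.37 and 0.12 in the YFP lysates. YFP-902 lay below every G298S lysate. Lists with medians near that of all genes included 38 tested odorant, gustatory and ionotropic receptors (-0.11), 82 cytochromes P450 (0.02), 56 cuticle proteins (0.02) and 26 translation initiation factors (-0.04, with eIF1A called). On the higher side stood 26 basal transcription factors, with a median of 0.27, no call in edgeR's test, 1 called lower in DESeq2 and 3 higher at an unadjusted p below 0.05.

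The unbound fraction gave a second reference, and the sets behaved differently with it. The same IPs entered both comparisons, so agreement for RNAs chosen by their IP levels was in part fixed in advance. Of the 45 more-enriched RNAs 44 kept a positive difference in IP over unbound, 41 with an unadjusted p below 0.05 and 23 with a call, and their median was 1.84. Of all 12801 genes tested against unbound, 5754 had a positive difference. In either direction, 2351 had an unadjusted p below 0.05 and 87 an adjusted p below 0.05. CG9578 was the exception at -0.17. Dop1R2 had 3.79 (SE 0.41, adjusted p = 0.000796), Dop1R1 had 3.74 (SE 0.57, adjusted p = 0.00903) and dlp had 3.54 (SE 0.40, adjusted p = 0.000796). The values for ey and Rac2 were 2.67 (SE 0.31, adjusted p = 0.000796) and 2.74 (SE 0.34, adjusted p = 0.00132). These mRNAs were more enriched with G298S against either reference, with the same IPs in both.

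Of the 48 less-enriched RNAs, 29 had a positive difference against unbound, none was called and 3 had an unadjusted p below 0.05, with a median of 0.07. Against unbound, eff had 0.047 (SE 0.38), Rac1 0.15 (SE 0.30), Eaat1 0.58 (SE 0.40), pAbp -0.18 (SE 0.68) and mt:lrRNA -0.48 (SE 0.34). The calls of lower enrichment were thus made with the input as the reference and not with the unbound fraction. Several list medians also changed sign. Relative to all genes, the synaptic list had a median of -0.85 against input and 0.90 against unbound, the Kenyon cell markers had -0.32 and 1.39, and the RNA-binding list had -0.997 and 0.63. Mitochondrially encoded genes had -0.89 and -0.38, without a change of sign.

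**Figure D4:**
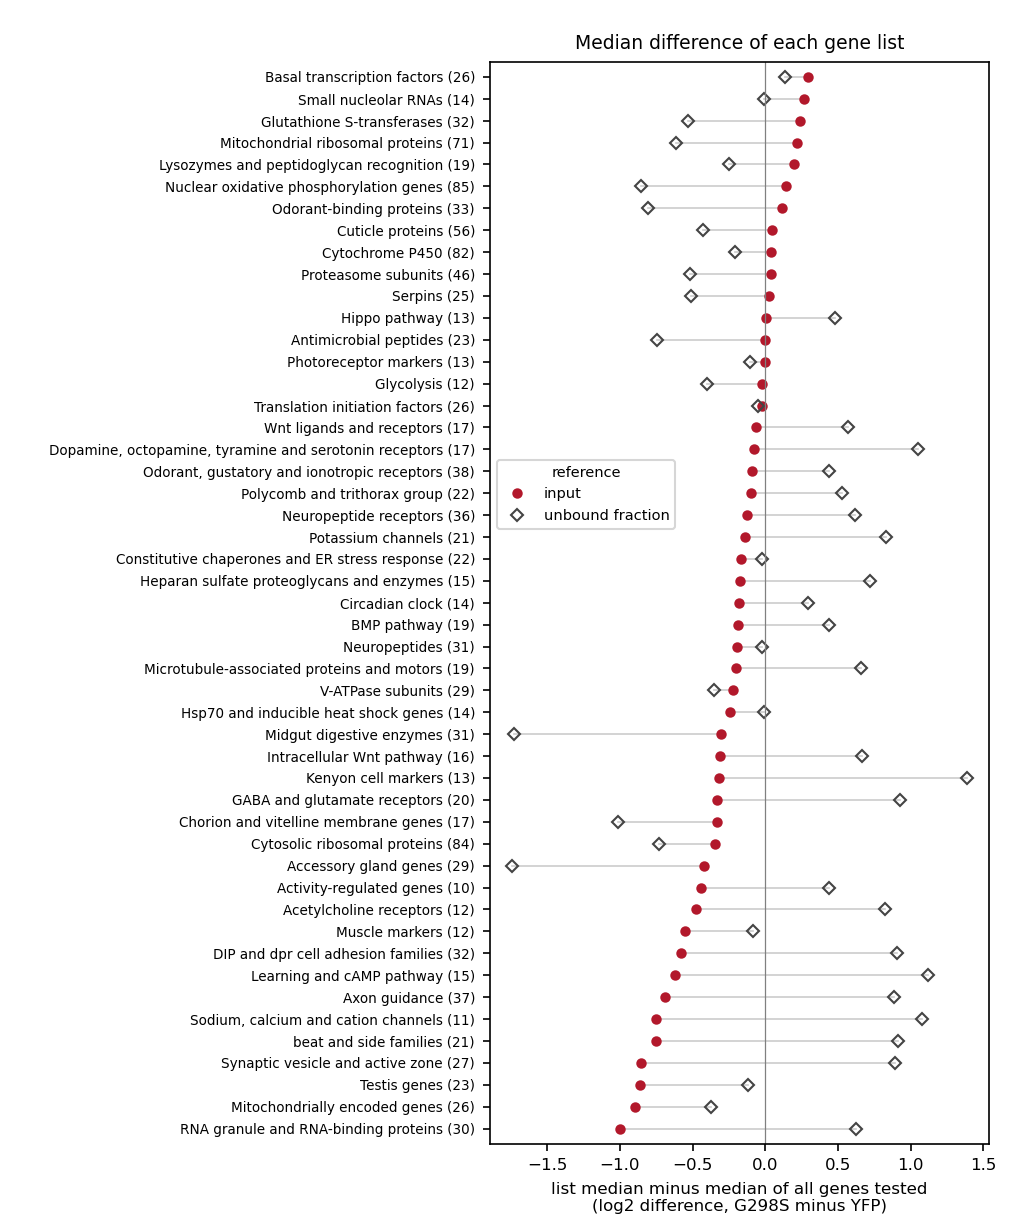
Median log2 difference of each gene list with at least 10 tested genes minus the median of all genes tested (x axis), G298S minus YFP, with filled red circles for the input as the reference and open diamonds for the unbound fraction, and the number of genes in parentheses. Against input most lists lie within 0.5 of all genes and the RNA granule list is lowest at -0.997, while several neuronal lists move to the right of 0 against unbound, as for Kenyon cell markers at 1.39.

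TDP-43 WT enrichment beyond YFP shares the YFP lysates with the G298S values, so both are only set side by side. For Dop1R2 the difference was 2.83 with G298S and 3.82 with WT, for Dop1R1 1.74 with G298S and 2.65 with WT, and for Dop2R 1.62 with G298S and 2.56 with WT. For ey it was 1.94 with G298S and 2.07 with WT, for dlp 2.25 with G298S and 2.80 with WT, and for GstD11 2.88 with G298S and 2.89 with WT. With WT 163 genes were more enriched than with YFP (1.26%) and 7 were less (0.0542%). Of the 45 genes 38 also passed with WT, and of the 48 genes 4 did.

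The direct comparison of G298S with WT does not use YFP. It gave an adjusted p below 0.05 for 34 genes (0.263%), of which 4 were among the 45 and 1 among the 48. bond had a difference of -2.67 (SE 0.30, adjusted p = 0.000744), CG3097 of -1.77 (SE 0.29, adjusted p = 0.0138), Rac2 of -1.69 (SE 0.25, adjusted p = 0.00480) and Cipc of -1.24 (SE 0.24, adjusted p = 0.0444). These 4 mRNAs were enriched beyond YFP with G298S, yet less so than with WT. For Rac2 the IP over input was 2.51, 2.53 and 2.54 in the G298S lysates, against 4.31, 4.16 and 4.18 in the lysates WT-202, WT-502 and WT-505. For bond it was 2.47, 2.46 and 2.83 in the G298S lysates, against 5.199, 4.71 and 5.79 in the WT lysates. The G298S and WT lysates did not overlap in either gene. Which TDP-43 allele a lysate carried was taken from the labels, since the transgene was not read. Such genes were picked with the labels in use. In the inputs, mt:lrRNA made up 45.1% of counts in G298S-203, beside 43.6 and 43.4% in the other G298S lysates. It made up 25.7% in WT-502, beside 33.9 and 33.0% in the other WT lysates. An exchange between a G298S and a WT lysate, such as G298S-203 and WT-502, was not tested. For eIF1A the G298S minus WT difference was -0.92 (SE 0.18, adjusted p = 0.0496). For the dopamine receptors the G298S minus WT difference did not pass, at -0.996 (SE 0.33) for Dop1R2, -0.91 (SE 0.36) for Dop1R1 and -0.93 (SE 0.25) for Dop2R, with adjusted p of 0.452, 0.544 and 0.254.

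The marker lists of head tissues differed between the genotypes in the same fractions. Photoreceptor markers summed to 12820 to 14930 CPM in G298S inputs, against 30030 to 31590 CPM in YFP inputs. Neuron markers summed to 1536 to 1655 CPM in G298S inputs, against 589 to 892 CPM in YFP inputs, and Kenyon cell markers to 1292 to 1331 CPM, against 431 to 681 CPM. None of these ranges overlapped, whereas the IP ranges overlapped for neurons (1556 to 2131 CPM in G298S and 994 to 2473 CPM in YFP) and for Kenyon cells (1692 to 2167 CPM in G298S and 770 to 2031 CPM in YFP). Glia markers had 3584 to 3901 CPM in G298S inputs and 3412 to 4046 CPM in YFP inputs, which overlapped.

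Genes of abdominal organs were also present. The 23 testis genes summed to 421 to 1351 CPM in G298S inputs, against 34.2 to 288 CPM in YFP inputs, and 31 midgut digestive enzymes to 239 to 1083 CPM, against 50.5 to 90.6 CPM. In the inputs of YFP-901 and YFP-902, 15 and 14 of the 23 testis genes and 23 and 15 of the 31 midgut genes were at 0, while none was at 0 in a G298S input. Accessory gland genes summed to 806 to 3406 CPM in G298S inputs and 421 to 981 CPM in YFP inputs, which overlapped. Chorion and vitelline membrane genes overlapped too, at 1.87 to 532 CPM in G298S inputs and 1.18 to 401 CPM in YFP inputs. No gene of these lists was called in edgeR's test or in DESeq2, with 1 testis gene and no midgut gene lower at an unadjusted p below 0.05. The part of these tissue differences in the lower enrichment against input was not tested.

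**Figure D5:**
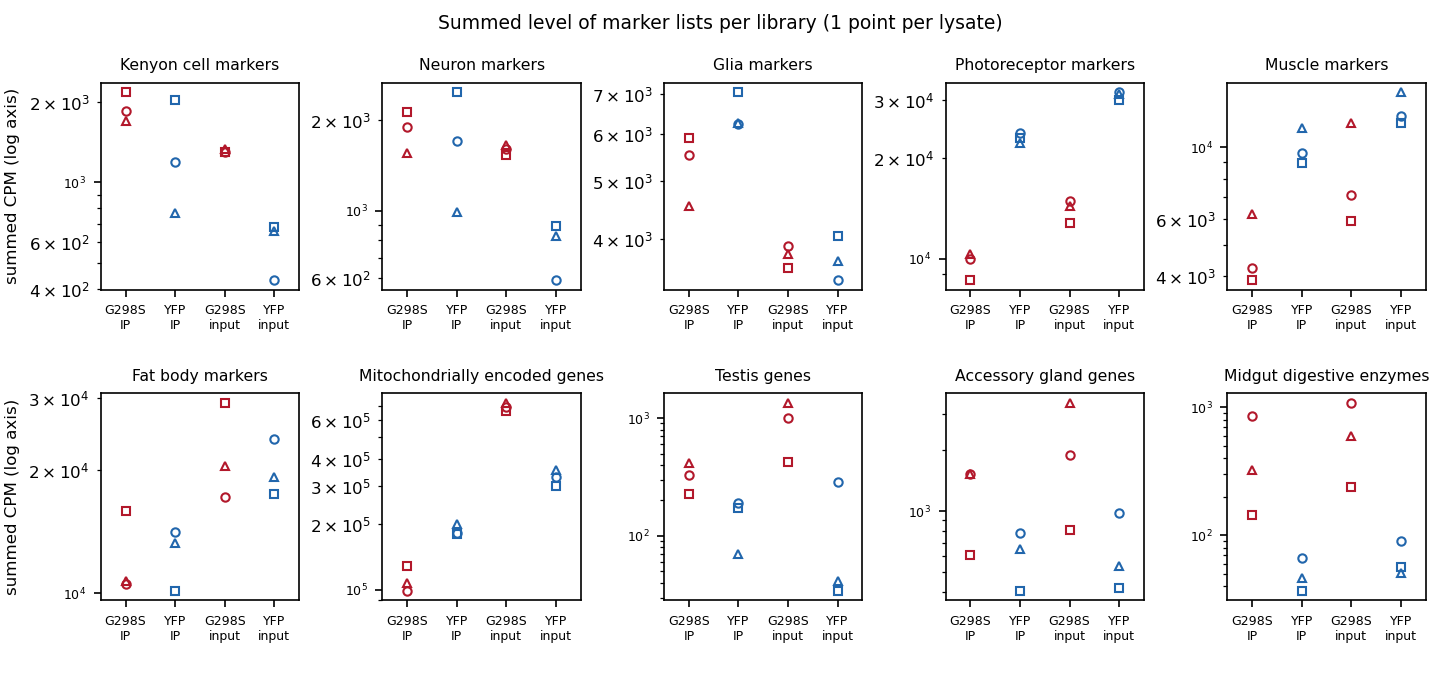
Summed CPM of marker and tissue gene lists (y axes, log scale), 1 point per lysate, in the G298S IP (left), YFP IP, G298S input and YFP input of each panel, with the same symbols per lysate as in the other plots. Neuron and Kenyon cell markers are higher in the 3 G298S inputs (red) than in the 3 YFP inputs (blue), photoreceptor markers are lower, and the neuron and Kenyon cell IPs overlap.

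The label prefixes fall into 3 sets. One holds G298S-203, WT-202 and YFP-201, another the remaining G298S and WT lysates, and the last YFP-901 and YFP-902, so that G298S and YFP share a prefix in 1 pair of lysates. In that pair, with no test, the median difference was 1.24 for the 45 more-enriched RNAs, -1.57 for the 48 less-enriched RNAs and -0.03 for all genes. The signs follow from the calls, which these lysates helped to make and in which no lysates of the genotypes overlapped, so these values are a description. What a prefix stands for is not given in the sources used here.

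With 3 lysates per genotype the number of calls depended on each lysate, since leaving out any 1 of the 6 left 3 to 11 more-enriched and at most 1 less-enriched call. In each of these fits all 93 RNAs kept their sign and an unadjusted p below 0.05, at most 0.00555 for the 45 and 0.00366 for the 48. The 93 had been chosen from these same lysates with no overlap between the genotypes, so this was close to fixed in advance. Without G298S-203, 3 RNAs were called more and none less enriched, and the differences were 2.92 (SE 0.41, adjusted p = 0.0272) for Dop1R2, 2.39 (SE 0.41, adjusted p = 0.0815) for dlp, 1.30 (SE 0.30, adjusted p = 0.153) for Rac2 and -1.69 (SE 0.30, adjusted p = 0.0815) for eff. Without the mitochondrially encoded and ribosomal RNA genes 43 of the 45 and 17 of the 45 less-enriched RNAs still tested remained called, and with all 27 libraries in the fit 43 of the 45 and 4 of the 48 did. The less-enriched set thus rested more on the choice of libraries and scaling than the more-enriched set.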

How the data were processed

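Per the labels, the authors immunoprecipitated YFP from fly head lysates and made SMART-Seq HT PLUS libraries of input, IP and unbound RNA. They deposited a table of raw counts per gene, not normalized, which they made with bcl2fastq 2.19.1.403, cutadapt 2.7, STAR 2.6.1d and featureCounts 1.6.3 according to the submitters' processing notes. The genome release and strand setting are not given in the sources used here.

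Counts of 17529 genes were filtered with filterByExpr, scaled by TMM and fitted with edgeR 4.0.16 (R 4.3.3) over 18 IP and input libraries in 6 groups of 3 lysates, without covariates. The contrast was (G298S IP - G298S input) - (YFP IP - YFP input), with Benjamini-Hochberg adjustment over all 12921 genes tested. A gene was called when its log2 difference was beyond 1 and its adjusted p below 0.05. CPM used a prior count of 2 only on the log scale. The script was tested on simulated data before use. Gene symbols came from Ensembl release 115 and matched 17425 identifiers, and the chromosome and summed exon length of each gene were taken from the annotation. The methods call the 3 lysates of a genotype biological replicates. The main fit took the IP and input of a lysate as separate libraries. Its p-values rest on the spread within the 6 groups of the 18 libraries, estimated in part across genes, not on the spread of enrichment per lysate.

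The members and gene lists were chosen with earlier results of these data known. Genes named are the 20 largest called differences upwards and the 10 largest downwards without overlap, the 10 of smallest adjusted p each way, called list members with up to 4 examples per list, and dlp, futsch, Dscam2, Rac2, Hsp70Bb, fz and fz2. The other named genes (bond, Atg5, Raf, Cdk5, PKD, Cipc, PGAP3, CG5644, CG3618, CG9578, w, Ubc6, yps, Rab5, Tom40, Xrp1, Ggamma1, GABA-B-R2, TBPH) were chosen after their values were seen. Not every gene list is reported here.

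Input, IP and unbound of 1 number came from the same lysate, so numbers pair the fractions. Deviations of an IP from its group mean correlated with those of its own input at r = 0.46 to 0.56 in G298S and 0.34 to 0.73 in YFP. In WT they did so at r = 0.68 and 0.75, but at 0.071 for WT-502, which correlated at 0.10 with another input. No libraries were identical. Alternatives were DESeq2 1.42.0, its size factors, library sizes alone, other filters and sets of libraries, the lysate number as a block, the unbound fraction as the reference, leaving out each lysate, and removal of an exon-length trend, the last chosen after seeing the data.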

Additional observations from a re-analysis of the deposited data

Results flagged for a closer look

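In 5 called genes the IP over input differed between TDP-43 G298S and TDP-43 WT by a test of that difference (edgeR's quasi-likelihood test, adjusted over all genes), always lower with G298S. The differences, G298S minus WT, were -2.67 for bond (adjusted p = 0.000744), -1.77 for CG3097 (adjusted p = 0.0138), -1.69 for Rac2 (adjusted p = 0.00480), -1.24 for Cipc (adjusted p = 0.0444) and -0.92 for eIF1A (adjusted p = 0.0496). The first 4 were more enriched with G298S than with YFP, and eIF1A was less enriched.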

How the results depend on the processing

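The number of more-enriched RNAs was 45 and ranged between 36 and 1445 over the other fits of all lysates, and that of less-enriched RNAs was 48 and ranged between 5 and 338. DESeq2 called 93 and 338, DESeq2's size factors within edgeR 56 and 89, library sizes alone 1445 and 9, a minimum of 10 counts in every library 81 and 213, and removal of mitochondrially encoded and ribosomal RNA genes 60 and 17. Fitting all 27 libraries gave 115 and 6, removing the exon-length trend 41 and 109, and the unbound fraction as the reference 81 and 5. The lysate number as a replicate block gave 47 and 74, with 37 of the 45 and 40 of the 48 still called, and the block with only the 12 G298S and YFP libraries gave 70 and 160. Leaving out 1 lysate gave 3 to 11 and 0 to 1, with 405 to 647 higher and 714 to 1226 lower genes at an unadjusted p below 0.05. In these fits fewer lysates estimated the spread. For the other changes of count the cause was not tested.

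When IP was set over unbound in place of input, the sign changed for futsch (1.02), Dscam2 (1.66), fz2 (1.05), DopEcR (0.95), dally (0.64), VhaAC45 (0.14), Ggamma1 (0.43), Ubc6 (0.0013), Rab5 (0.21), Xrp1 (0.076), Vha26 (0.18), Rac1 (0.15), Tom40 (0.10), lncRNA:roX1 (0.43), bru1 (0.39), Ubc2 (0.14), Syt1 (1.04), Eaat1 (0.58), mamo (0.49), VAChT (1.16), 5-HT7 (0.29), dnc (0.45), Sdc (0.42), Hrb27C (0.60), eff (0.047), Syp (0.16), Prps (0.12), orb2 (0.37) and CG9578 (-0.17). The differences near 0 of futsch and Dscam2 also turned positive with library sizes alone (0.63 and 0.58), without mitochondrially encoded and ribosomal RNA genes (0.095 and 0.046), with all 27 libraries (0.12 and 0.074) and without the exon-length trend (0.44 and 0.30). Leaving out 1 lysate gave -0.25 to 0.077 for futsch and -0.18 to 0.30 for fz. The cause was not tested.

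The IP of G298S-503 held 1848426 counts, so low mRNAs rest on few reads there. Input RNA composition differed between the genotypes, and the transgenes could not be read from the table. Tests of GU repeats in transcripts were planned and not run, since no transcript sequence was used here.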

Other observations

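Chromosome and length set the called RNAs apart from the rest as plain counts, with no test. Of the 45 more-enriched RNAs 13 lie on the X chromosome (28.9%), among them Dop2R, w, Raf and Atg5, against 4 of the 48 less-enriched RNAs (8.33%) and 2014 of all genes tested (15.6%). The median exon length was 2314 bases for the more-enriched and 2828 bases for the less-enriched RNAs, against 1761 bases for all. Called RNAs also had more reads, with a median of mean log2 CPM of 4.66 and 7.3, against 3.78 for all. Whether the length contrast follows from read number was not tested. Across 12862 genes, which share these libraries and are not independent, the difference had a Spearman correlation of -0.18 with exon length and of -0.06 with mean log CPM.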
